A study of Mus musculus with 8 samples.

Results

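The genes of the mitochondrial respiratory chain and of ATP synthase were compared between mammary cells of parous and age-matched virgin mice. Members were the genes with a symbol that begins with Ndufa, Ndufb, Ndufc, Ndufs, Ndufv, Uqcr, Atp5 or Cox followed by a digit from 4 to 8, together with Sdha, Sdhb, Sdhc and Sdhd, on array probe sets that name 1 gene. They were chosen by symbol and not by level or change. This gave 89 of the 19943 gene symbols on the array, on 113 probe sets, and where a gene had several, the one with the highest mean stood for it. The 89 genes comprise 34 subunits of complex I, 7 assembly factors of complex I, 4 subunits of complex II, 8 of complex III, 19 of complex IV and 17 of complex V. Ndufa4 and its paralog Ndufa4l2 are counted with complex IV, because Ndufa4 is a subunit of cytochrome c oxidase despite its name. The 13 subunits encoded in mitochondrial DNA were not analysed here.

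The study addressed how an early pregnancy changes the gene expression of the mammary gland. The array was the Affymetrix Mouse Gene 1.0 ST, and 8 were hybridized, 4 with RNA from parous and 4 from virgin FVB/NHanHsd mice. Each array held RNA of the fourth mammary glands, pooled from 5 mice. Parous mice were mated at 42 days of age, lactated for 21 days and, by the labels, went through 28 days of involution, for which the methods give a longer time. Virgin mice were of the same age and never mated. The samples are labelled as total mammary epithelial cells, but they were cell suspensions not sorted by FACS, from which lymph nodes, adipocytes and red blood cells had been removed and fibroblasts reduced. The 11 luminal and 10 basal epithelial markers measured were each above the median of at least 1 array, and so were the 12 immune, 8 endothelial and 8 fibroblast markers. The 2 red blood cell markers measured were too, and only 3 of 9 white adipocyte markers were below the median of every array. This level by itself therefore does not show which cell types the suspensions held. With bulk RNA, fewer cells of a type and less RNA per cell cannot be told apart. The pools count as replicates, and no source used here gives the estrous stage of a pool. Virgin replicates 2 and 4 stood apart from the other 6 arrays on the first principal component, at 32.7 and 66.77 against -25.76 to -9.352, and values without these 2 arrays are given beside those of all 8 where the difference moved by over 1.5 times.

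Complexes I to IV form the electron transport chain of the inner mitochondrial membrane. Complexes I and II pass electrons from NADH and succinate to ubiquinone, complex III passes them on to cytochrome c, and complex IV, cytochrome c oxidase, passes them to oxygen. Complexes I, III and IV pump protons, and complex V, ATP synthase, uses the proton gradient to make ATP. Several nuclear genes of these complexes are known targets of the transcription factor NRF1, and the mammary epithelium builds up mitochondria for milk synthesis during pregnancy and lactation.

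Promoter windows, the 250 bases before a RefSeq transcription start (mouse build GRCm38.p6), were found for 73 of the 89 genes, with 78 windows in all. Letters of the core NRF1 motif, GCATGCG or on the other strand CGCATGC, stood in 10 of the 78 windows (12.8%), against 3.02% of the 32851 windows of all genes. The windows of 4 genes are printed because these genes lie at the ends of the differences between the groups: Atp5k and Ndufc1 were among the lowest of their complexes in parous mice, and Ndufa6 and Cox8b were the highest of theirs. All lie on the minus strand and are written 5′ to 3′, as chr5:108434400-108434649 for Atp5k, chr15:82354292-82354541 for Ndufa6, chr3:51408956-51409205 for Ndufc1 and chr7:140900447-140900696 for Cox8b. Capitals mark the NRF1 letters.
Atp5k: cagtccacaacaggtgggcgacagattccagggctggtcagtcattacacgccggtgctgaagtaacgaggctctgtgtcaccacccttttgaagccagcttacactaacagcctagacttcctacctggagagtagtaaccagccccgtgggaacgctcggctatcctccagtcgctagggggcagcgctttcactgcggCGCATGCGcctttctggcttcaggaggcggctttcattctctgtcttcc
Ndufa6: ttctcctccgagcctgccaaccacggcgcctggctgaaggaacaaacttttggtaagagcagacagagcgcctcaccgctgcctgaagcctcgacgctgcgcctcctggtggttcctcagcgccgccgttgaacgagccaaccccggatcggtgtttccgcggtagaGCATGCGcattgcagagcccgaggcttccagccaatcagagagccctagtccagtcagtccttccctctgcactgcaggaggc
Ndufc1: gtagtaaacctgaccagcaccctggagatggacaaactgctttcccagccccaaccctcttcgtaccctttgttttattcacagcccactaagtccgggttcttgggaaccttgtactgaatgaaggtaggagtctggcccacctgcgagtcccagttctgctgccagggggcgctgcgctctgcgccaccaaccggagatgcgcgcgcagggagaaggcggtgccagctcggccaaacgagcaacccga
Cox8b: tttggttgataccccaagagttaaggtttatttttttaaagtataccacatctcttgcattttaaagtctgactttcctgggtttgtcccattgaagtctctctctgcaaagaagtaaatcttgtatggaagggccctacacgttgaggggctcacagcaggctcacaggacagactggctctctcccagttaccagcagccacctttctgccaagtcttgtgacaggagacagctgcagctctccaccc
The NRF1 letters were in the windows of Atp5k and Ndufa6, whose differences had opposite signs, and not in those of Ndufc1 and Cox8b. Among the other motifs searched on both strands, CCGGAAG, which ETS factors bind, was in 16.7% of the members' windows and 6.91% of all windows. The letters ATGGCGG, of the YY1 motif, were in 7.69% against 2.21%. The shares were closer together for GGGCGG of the SP1 motif (37.2% against 32.7%), for AAGGTCA, to which estrogen-related receptors bind (5.13% against 4.08%), and for the TATA box letters TATAAA (10.3% against 12.4%). The members' windows held a median of 14.5 CpG dinucleotides, against 6 for all windows.

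Most respiratory chain genes were lower in parous than in virgin cells, by small amounts, and none passed the test. The log2 fold change, the mean log2 value of the 4 parous arrays minus that of the 4 virgin arrays, was below 0 for 75 of the 89 genes (84.3%, against 49.6% of all 34760 probe sets). Its median was -0.14, against 0.0024 over all genes. The largest linear fold change of a member was 1.36, and the smallest adjusted p was 0.2, both of Atp5md (limma, Benjamini-Hochberg over all probe sets). The study's methods asked for a linear fold change above 1.5 together with an adjusted p below 0.05 and a mean expression above 4 on the linear scale, or 2 on the log2 scale. By these criteria 0.158% of all probe sets were lower and 0.239% higher in parous mice, and 0 of 89 members were in either direction, although all 89 had a mean log2 value over 2. Without the fold criterion, 0.42% of all probe sets and again 0 members passed, and an unmoderated Student t statistic also called 0. At an unadjusted p under 0.05, limma gave 20 members lower (22.5%, against 6.14% of all probe sets) and 1 higher (1.12%, against 5.26%). In 18 members the 4 parous values lay below all 4 virgin values (20.2%, against 4.06% of all probe sets), and in 0 they lay above them (3.54%).

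The members were brightly expressed genes, and bright probe sets leaned the same way. Of the members, 79 were above the median of every array, and 5 (Ndufs5, Ndufaf5, Ndufaf6, Cox7b2 and Cox8b) were below the median of every array. Of the 17380 probe sets with a mean above the median of all, 55.3% had a log2 fold change below 0 and 9.64% were lower at an unadjusted p under 0.05, with a median of -0.022. The same shares for the 83 members among them were 86.7% and 24.1%, with a median of -0.15.

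**Figure D1:**
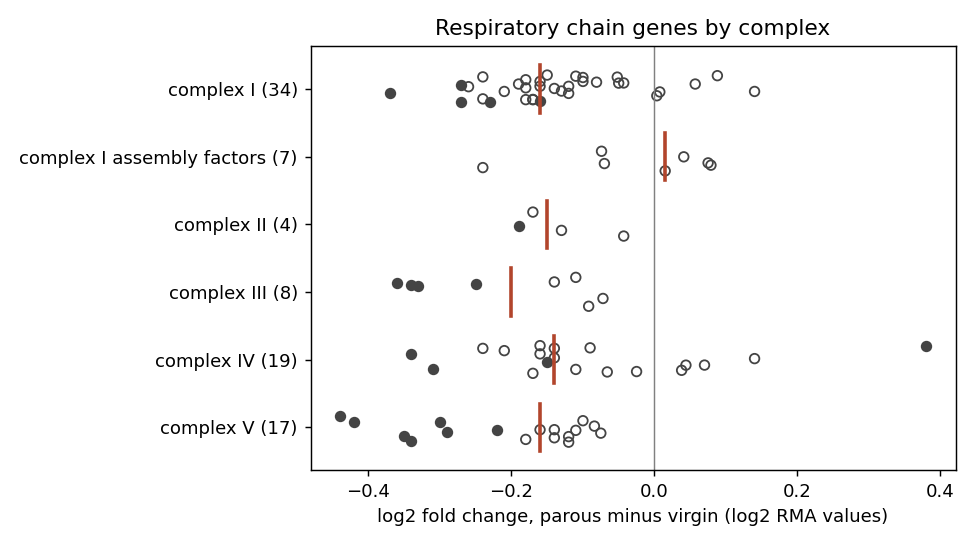
Log2 fold change (parous minus virgin) of the 89 respiratory chain genes by complex, with each point 1 gene, filled where the unadjusted p was under 0.05, and a vertical bar at the median of each complex. All 17 genes of complex V and all 8 of complex III lie below 0, while the complex I assembly factors lie on both sides.

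Complex I, NADH dehydrogenase, had 29 of its 34 subunits lower in parous cells, with a median log2 fold change of -0.16, and 5 were lower at an unadjusted p under 0.05 (14.7%, against 6.14% of all probe sets and 9.64% of bright ones). The 6 measured core subunits, most of which carry the flavin or iron-sulfur clusters, had a median of -0.093. The 28 accessory subunits had a median of -0.17. These medians were -0.0087 and -0.032 without virgin replicates 2 and 4. Ndufc1, an accessory subunit of the membrane arm, had log2 values of 8.98, 9.00, 8.99 and 8.79 on the parous arrays and 9.12, 9.45, 9.23 and 9.42 on the virgin arrays. All 4 parous pools lay below all 4 virgin pools, with virgin replicates 2 and 4 highest. Its log2 fold change was -0.37, the lowest in complex I (standard error 0.10, 95% interval -0.59 to -0.14, adjusted p = 0.211 from limma), and -0.23 without virgin replicates 2 and 4. Ndufa7, another accessory subunit, had 8.84, 8.82, 9.00 and 8.56 on the parous and 9.04, 9.19, 9.05 and 9.03 on the virgin arrays. The groups did not overlap there either, and the log2 fold change was -0.27 (standard error 0.10, adjusted p = 0.354 from limma).

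Ndufs4, an accessory subunit near the NADH-oxidizing end of the complex, is mutated in some forms of Leigh syndrome. It was chosen after its values were seen, because it is a complex I subunit whose groups stood apart on every array, with 9.75, 9.83, 9.72 and 9.65 in parous and 9.93, 10.05, 9.91 and 10.13 in virgin pools. Its log2 fold change was -0.27 (standard error 0.079, adjusted p = 0.251 from limma). Ndufc2, which sits beside Ndufc1 in the membrane arm, was also chosen after its values were seen. It had 11.88, 11.88, 11.88 and 11.89 in the parous pools and 11.85, 12.25, 11.91 and 12.17 in the virgin pools. Only virgin replicates 2 and 4 were above the parous range by more than 0.1, and the log2 fold change of -0.16 (95% interval -0.39 to 0.071) was 0.0062 without these arrays. At the other end of complex I, Ndufa6 had 10.21, 10.29, 10.31 and 10.20 in parous and 10.31, 10.18, 10.12 and 9.85 in virgin pools. The groups overlapped, with virgin replicate 4 lowest, and the log2 fold change was 0.14 (95% interval -0.10 to 0.37), or 0.036 without virgin replicates 2 and 4. Ndufb10, the next highest, had a log2 fold change of 0.088, which was -0.00052 without virgin replicate 4.

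The 7 complex I assembly factors, which build the complex but are not part of it, had a median log2 fold change of 0.015, and 3 of 7 were below 0. The sign of this median turned with array weights (-0.034) and with arrays centred on their median (-0.0018). It also turned without parous replicate 1 (-0.027) or 3 (-0.019), and without virgin replicate 1 (-0.01) or 4 (-0.0057). Ndufaf2, a chaperone that stands in for a late subunit, had 6.29, 6.46, 6.38 and 6.23 in parous and 6.37, 6.87, 6.25 and 6.80 in virgin pools, a log2 fold change of -0.24 (95% interval -0.58 to 0.10). Its high values were those of virgin replicates 2 and 4, without which the log2 fold change was 0.026. Ndufaf4, the next lowest, was at -0.074, and Ndufaf5 and Ndufaf1 were the highest, at 0.079 and 0.075. The value of Ndufaf5 turned to -0.0053 without virgin replicate 1.

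Complex II, succinate dehydrogenase, is shared with the citric acid cycle, and its 4 subunits had a median log2 fold change of -0.15. Sdhb, the iron-sulfur subunit, had 9.32, 9.31, 9.23 and 9.25 in parous and 9.44, 9.65, 9.39 and 9.39 in virgin pools, a log2 fold change of -0.19 (95% interval -0.37 to -0.0016, adjusted p = 0.435 from limma). The groups did not overlap for Sdhb, whereas they did for the other 3 subunits. Sdhc, a membrane anchor, was at -0.17 (95% interval -0.35 to 0.0095). Sdhd, the other anchor, was at -0.13, and at 0.042 without virgin replicates 2 and 4. Sdha, the flavoprotein with the catalytic site, had one of the smallest spreads of all members (SD 0.049 in parous and 0.051 in virgin pools) and a log2 fold change of -0.043.

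All 8 subunits of complex III, cytochrome bc1, were lower in parous cells on the probe sets used, with a median of -0.20. Of these, 4 were lower at an unadjusted p under 0.05 (50%, against 6.14% of all probe sets and 9.64% of bright ones). Uqcrq, a small membrane subunit, had 9.49, 9.42, 9.41 and 9.20 in parous and 9.67, 9.91, 9.62 and 9.77 in virgin pools. The groups stood apart, with a log2 fold change of -0.36 (standard error 0.10, 95% interval -0.58 to -0.14, adjusted p = 0.205 from limma). Uqcrfs1, the Rieske iron-sulfur protein that hands electrons to cytochrome c1, had 8.76, 8.68, 8.49 and 8.52 in parous and 9.00, 9.14, 8.88 and 8.81 in virgin pools. Here virgin replicate 4 was the lowest virgin pool but still above every parous pool, and the log2 fold change was -0.34 (standard error 0.10, adjusted p = 0.251 from limma). Uqcrq and Uqcrfs1 had log2 fold changes of -0.26 and -0.33 without virgin replicates 2 and 4. Uqcrb, a ubiquinone-binding subunit, was at -0.092. Uqcrh, the acidic hinge protein, was at -0.072, and at 0.011 without parous replicate 4. Uqcr11, a small subunit, had one of the largest spreads, with 9.83 to 10.35 in parous and 9.83 to 10.49 in virgin pools. Its log2 fold change was -0.14 (95% interval -0.51 to 0.22), and its other probe set was at 0.019.

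In complex IV, cytochrome c oxidase, the widely expressed subunits and the tissue-restricted isoforms had medians of different sign. All 10 widely expressed subunits were lower in parous cells (median -0.16, and -0.11 without virgin replicates 2 and 4), while the 8 restricted isoforms had a median of 0.041 (-0.048 without these arrays), with 3 of 8 below 0. Over all 19 genes the median was -0.14. Ndufa4 had 9.97, 10.02, 9.90 and 9.95 in parous and 10.12, 10.57, 10.12 and 10.40 in virgin pools. The parous pools all lay below the virgin pools, and the log2 fold change was -0.34 (standard error 0.11, 95% interval -0.60 to -0.084, adjusted p = 0.303 from limma), or -0.16 without virgin replicates 2 and 4. Cox5a, a matrix-side subunit, had 9.91, 9.91, 9.77 and 9.85 in parous and 9.90, 10.39, 10.07 and 10.33 in virgin pools. Virgin replicate 1 lay within the parous range, and the log2 fold change was -0.31 (standard error 0.12, adjusted p = 0.357 from limma), or -0.12 without virgin replicates 2 and 4. Cox6c had small spreads (SD 0.037 and 0.029), so that the groups stood apart at a log2 fold change of only -0.09.

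Cox8b, the isoform of subunit VIII found in heart, skeletal muscle and brown fat, was the 1 member higher in parous cells at an unadjusted p under 0.05. Its values were 5.91, 6.16, 5.82 and 5.70 in parous and 5.74, 5.54, 5.56 and 5.26 in virgin pools. Parous replicate 4 was below virgin replicate 1, so the groups overlapped, and the log2 fold change was 0.38 (standard error 0.13, 95% interval 0.08 to 0.68, adjusted p = 0.322 from limma). It was 0.25 without virgin replicates 2 and 4, and all 8 values were below the median of their array. Cox8a, the widely expressed counterpart, was 11.57, 11.53, 11.62 and 11.53 in parous and 11.66, 11.76, 11.68 and 11.78 in virgin pools, a log2 fold change of -0.15. Beside Cox8b, 5 of the 6 brown adipocyte markers that are not respiratory chain genes had a log2 fold change above 0, with a mean centred value of -0.07 to 0.32 in parous and -0.30 to 0.11 in virgin pools. Ucp1, their defining gene, was below the median of every array, with 5.20 to 6.10 in parous and 4.99 to 5.51 in virgin pools. Of 13 skeletal muscle markers, 8 were above 0 and 8 lay below the median of every array. The part of these cells in the values of Cox8b was not tested.

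In the other isoform pairs, too, the widely expressed gene was lower in parous cells, on the log2 fold change scale. Cox4i1 was at -0.14 and Cox4i2, an isoform of lung and pericytes, at 0.038. Cox6a1 was at -0.16 and Cox6a2, of heart and muscle, at 0.044. Cox6b1 was at -0.16, and its testis isoform Cox6b2 at -0.24. Cox7a2 was at -0.17 and Cox7a1, of heart and muscle, at -0.066, with a large spread (6.97 to 7.42 in parous and 6.89 to 7.68 in virgin pools). Ndufa4l2, which is induced by hypoxia, was at 0.07, against -0.34 of Ndufa4, and also varied widely, with 6.62 to 7.33 in parous and 6.53 to 7.31 in virgin pools. Cox8c, a testis isoform, was at 0.14 (95% interval -0.14 to 0.42). Among these restricted isoforms the smallest adjusted p was 0.496 (limma), of Cox6b2, and the signs of Cox4i2, Cox6a2, Cox7a1 and Ndufa4l2 turned without virgin replicates 2 and 4, to -0.12, -0.035, 0.12 and -0.18. Cox4i2 and Ndufa4l2 are also pericyte markers, and the 7 smooth muscle and pericyte markers other than these had mean centred values of 0.17, -0.37, 0.031 and -0.72 on virgin replicates 1 to 4, against -0.043 to 0.46 on the parous pools. Whether these cells account for the isoforms' values was not tested.

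**Figure D2:**
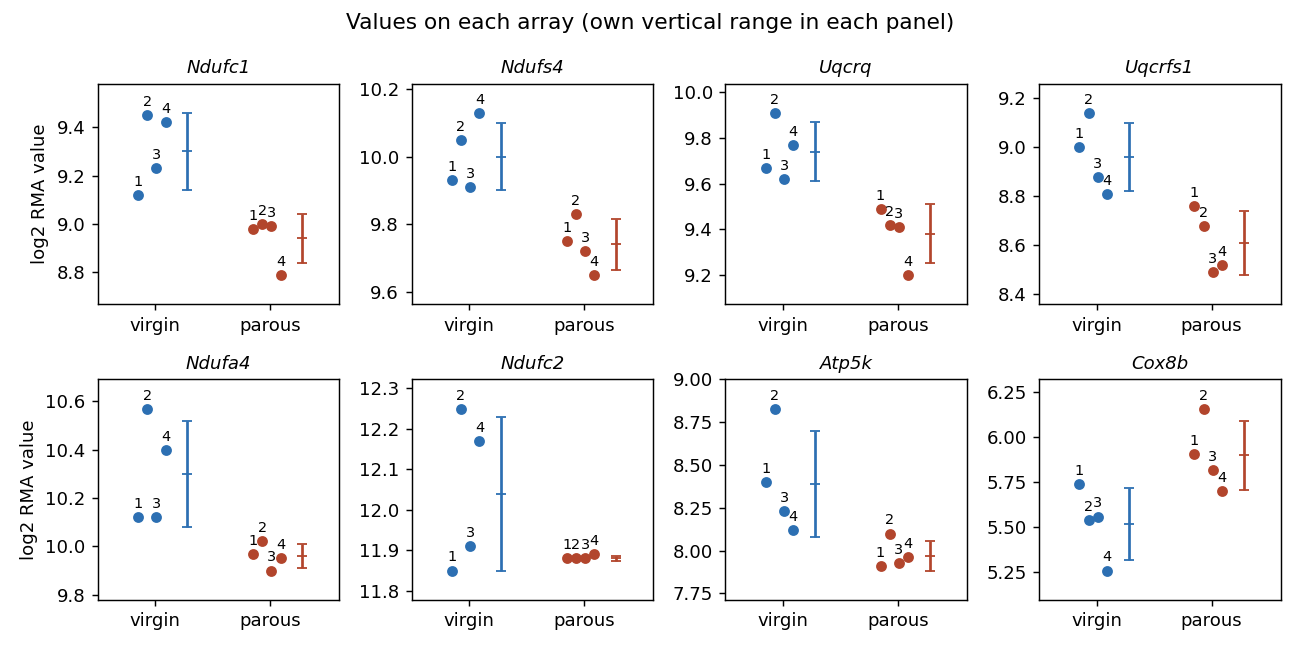
Log2 RMA values of 8 respiratory chain genes on each array, with points numbered by replicate and bars at the mean ± SD of the 4 pools, on a vertical range that differs between panels. Ndufc1, Ndufs4, Uqcrq, Uqcrfs1, Ndufa4 and Atp5k had all parous pools below all virgin pools, Ndufc2 only differed on virgin replicates 2 and 4, and Cox8b was higher in parous pools with an overlap.

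All 17 genes of complex V, ATP synthase, were lower in parous cells on the probe sets used, with a median log2 fold change of -0.16. Of these, 7 were lower at an unadjusted p under 0.05 (41.2%, against 6.14% of all probe sets and 9.64% of bright ones). This was the largest number of any complex, while complex III had the larger share (50%). The number depends on the choice of probe set. Atp5l, Atp5md and Atp5pb, which are among the 7, were read from probe sets with numbers among those of another chromosome. Their probe sets among numbers of their own chromosome had adjusted p of 0.582, 0.625 and 0.516 (limma). With such probe sets, 18 instead of 21 of all members were at an unadjusted p under 0.05. The 5 subunits of F1, among them Atp5b with the catalytic sites, had a median of -0.12 and spreads down to an SD of 0.016. The 12 subunits of the peripheral stalk and the membrane part had a median of -0.26 and held all 7. Without virgin replicates 2 and 4 these medians were -0.038 for F1 and -0.10 for the peripheral stalk and membrane part. Atp5md, a small membrane subunit involved in joining ATP synthase dimers, had 10.39, 10.18, 10.02 and 9.98 in parous and 10.46, 10.70, 10.45 and 10.73 in virgin pools. Its log2 fold change was the lowest of all members at -0.44 (standard error 0.12, 95% interval -0.71 to -0.18, adjusted p = 0.2 from limma). The probe set behind this value has a number among those of another chromosome, and the probe set of Atp5md among numbers of its own chromosome had a log2 fold change of -0.25. Atp5k, subunit e, which takes part in dimer formation, had 7.91, 8.10, 7.93 and 7.96 in parous and 8.40, 8.83, 8.23 and 8.12 in virgin pools. Virgin replicate 4 was the lowest virgin pool and close to parous replicate 2, and the log2 fold change was -0.42 (standard error 0.15, adjusted p = 0.329 from limma), or -0.34 without virgin replicates 2 and 4.

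Atp5mpl, a small proteolipid of ATP synthase, and Atp5l, subunit g, were chosen after their values were seen. Atp5mpl had 8.99, 9.02, 9.12 and 9.01 in parous and 9.30, 9.60, 9.23 and 9.38 in virgin pools, a log2 fold change of -0.34 (95% interval -0.55 to -0.13, adjusted p = 0.214 from limma) with no overlap. Atp5l had 9.95, 9.95, 10.01 and 9.76 in parous and 10.52, 10.51, 10.15 and 9.90 in virgin pools. Here virgin replicate 4 lay within the parous range, unlike for Atp5mpl, and the log2 fold change of -0.35 was -0.41 without virgin replicates 2 and 4. The used probe set of Atp5l also lies among numbers of another chromosome, and that of its own chromosome gave -0.28. At the other end, Atp5d, the delta subunit of F1, had 12.76, 12.75, 12.75 and 12.72 in parous and 12.76, 12.82, 12.76 and 12.94 in virgin pools, a log2 fold change of -0.075. Atp5j, the coupling factor F6, was at -0.084.

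The differences between the groups were of the size of the differences between pools. The absolute log2 fold change was larger than the pooled SD within groups in 57 of 89 genes, a count not made over all genes. The median absolute log2 fold change was 0.14 over the members, against 0.11 over all genes and 0.13 over bright ones. The median SD of the members was 0.086 over the parous and 0.16 over the virgin pools, against 0.13 and 0.15 over all genes. The virgin SD was the larger in 65 of 89 members (73%), against 58.7% of all genes and 68.7% of the genes with a mean above the median of all probe sets. The highest of the 8 values was on virgin replicate 4 for 35 members and on virgin replicate 2 for 34 (39.3% and 38.2%), against 21.5% and 12.9% of all genes. The lowest was on parous replicate 4 for 42 members, against 2989 of all 19943 genes and 2458 of the 12051 bright ones.

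**Figure D3:**
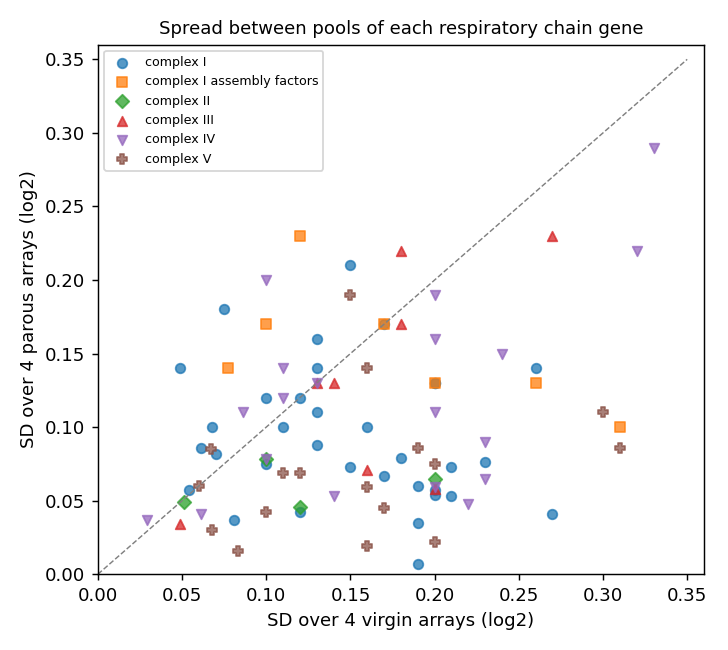
SD of the log2 values of each of the 89 genes over the 4 virgin arrays (horizontal axis) and over the 4 parous arrays (vertical axis), with the symbol giving the complex and a dashed line where both are equal. In 65 of 89 genes the point lies below the line.

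The mean of the members of a complex was taken on each array, with each gene centred on its mean over the 8 arrays. For complex I this mean was -0.16 to -0.027 in parous pools and -0.015, 0.15, -0.0071 and 0.14 in virgin replicates 1 to 4. Virgin replicates 1 and 3 thus lay just above the parous pools, and virgin replicates 2 and 4 well above them. Complex II was alike, with -0.10 to -0.029 in parous and -0.036, 0.17, 0.0019 and 0.12 in virgin pools, where virgin replicate 1 lay within the parous range. For complex III the parous pools were at -0.24 to -0.0066 and the virgin pools at 0.11, 0.23, 0.017 and 0.071, with virgin replicate 1 second highest. Complex IV had -0.13 to 0.01 in parous and 0.06, 0.11, -0.0067 and 0.016 in virgin pools, so that the groups overlapped. Complex V had -0.16 to -0.07 in parous and 0.034, 0.23, 0.0018 and 0.16 in virgin pools, and the groups did not overlap.

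The 24 proliferation genes measured had the same 2 virgin pools highest. In virgin replicates 2 and 4 their mean centred value was 1.05 and 1.54, whereas virgin replicates 1 and 3 had -0.21 and -0.20 and the parous pools lay between -0.78 and -0.39. Of the 24, 23 had a log2 fold change below 0, and 18 were lower at an unadjusted p under 0.05 (75%, against 6.14% of all probe sets). The median of the proliferation genes was -1.18, and -0.40 without virgin replicates 2 and 4. Luminal epithelial markers differed in another way, with 0.23, 0.21, 0.25 and -0.053 in the virgin pools and -0.33 to -0.10 in the parous pools. Of the 11, 10 were below 0. At an unadjusted p under 0.05, 5 luminal markers were lower (45.5%, against 6.14% of all probe sets) and 1 was higher. Basal markers were at 0.034 to 0.32 in virgin and -0.26 to -0.052 in parous pools, with 4 of 10 lower at this p (40%). Immune markers ranged from -0.65 to 0.80 in virgin and from -0.24 to 0.63 in parous pools. Fibroblast markers had a median log2 fold change of 0.47, with 4 of 8 higher at an unadjusted p under 0.05, against 5.26% of all probe sets. Their mean centred values were -0.52 to 0.07 in virgin and -0.12 to 0.61 in parous pools. All 8 endothelial and all 9 smooth muscle and pericyte markers were above 0, and both lists had their lowest values on virgin replicate 4, at -0.63 and -0.64. Without virgin replicates 2 and 4, 6 of the 8 endothelial and 2 of the 9 smooth muscle and pericyte markers were below 0. Parous replicate 4, which had the lowest mean of each of the 5 complexes, also had the lowest luminal and basal values, at -0.33 and -0.26, and the highest of fibroblast markers, at 0.61. The part of proliferation and of cell types in the respiratory chain values was not tested.

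**Figure D4:**
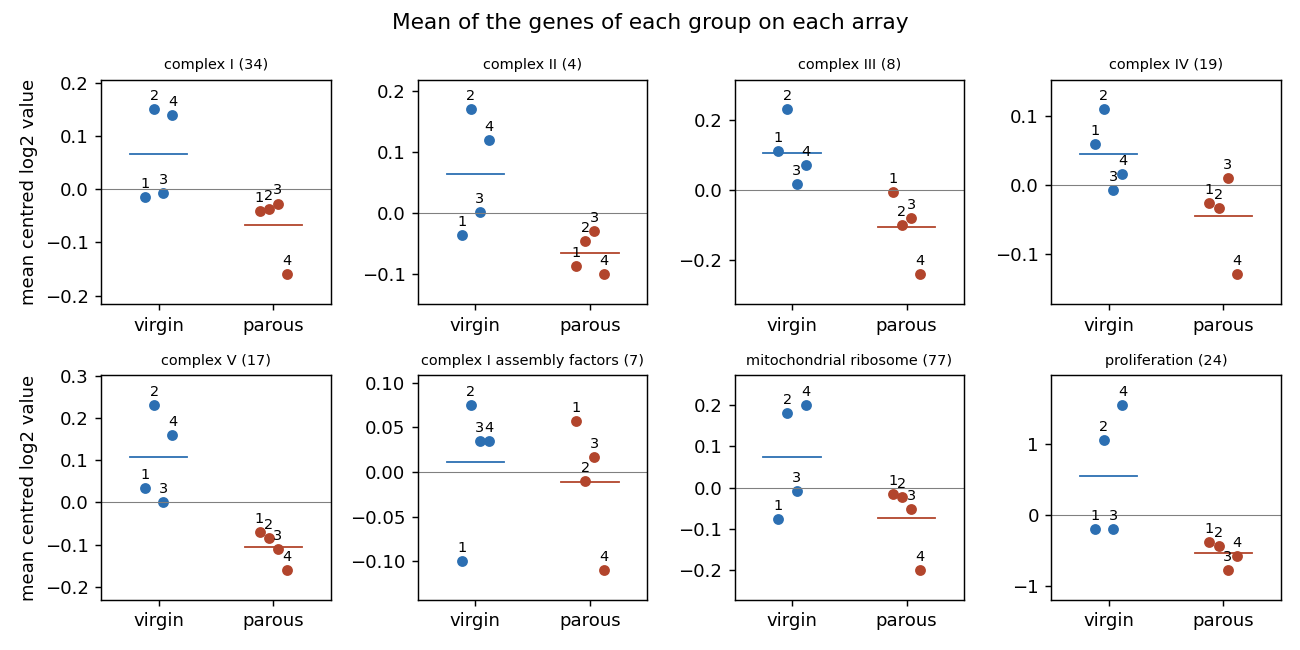
Mean centred log2 value of the genes of each complex, of the complex I assembly factors, of the mitochondrial ribosome and of proliferation genes on each array, with the number of genes in brackets, points numbered by replicate and lines at the group means. Virgin replicates 2 and 4 are highest for complexes I, II and V, for the mitochondrial ribosome and for proliferation, and virgin replicate 1 is second highest for complexes III and IV.

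Without virgin replicates 2 and 4, chosen as arrays to leave out with their position known, 71 of 89 members were still below 0 (79.8%, against 46.7% of all probe sets), and the median over the members was -0.061. The medians were -0.023 for complex I, -0.051 for complex II, -0.18 for complex III, -0.10 for complex IV and -0.084 for complex V, against 0.0033 over all genes. Complex III thus had nearly the same median with and without these arrays (-0.20 and -0.18), while that of complex I was close to 0. All 17 genes of complex V and 7 of 8 of complex III stayed below 0. Among the named genes not given above, the log2 fold change was then -0.10 for Sdhc, -0.0065 for Sdha, -0.27 for Uqcr11, -0.16 for Uqcrh, -0.089 for Cox6a1, -0.061 for Cox6b2, 0.067 for Cox8c, -0.015 for Atp5d, -0.047 for Atp5j, -0.041 for Ndufaf4 and 0.17 for Ndufaf5. At an unadjusted p under 0.05, 6 members were lower (6.74%, against 3.47% of all probe sets), namely Atp5k, Atp5l, Atp5md, Atp5mpl, Uqcrfs1 and Uqcrq, and 0 were higher (4.09%). With 2 virgin arrays left, this fit takes their spread to be like that of the parous arrays.

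**Figure D5:**
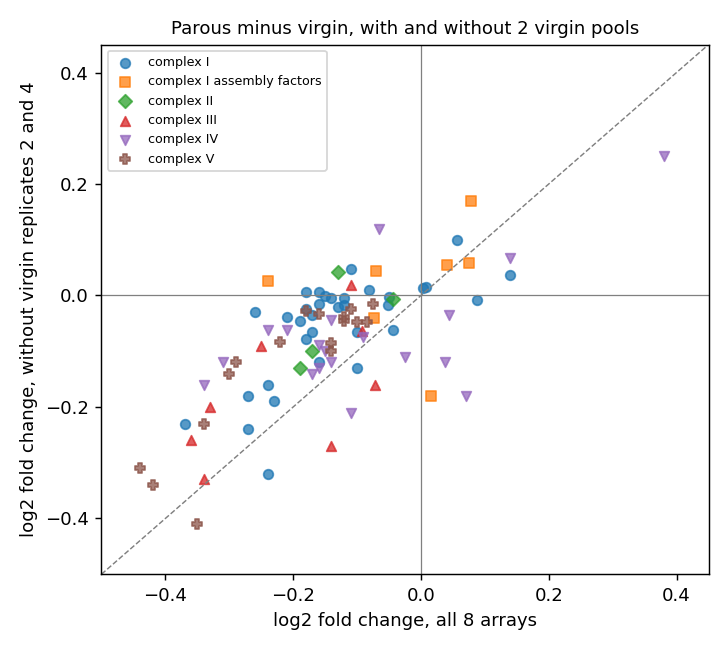
Log2 fold change (parous minus virgin) of the 89 genes with all 8 arrays (horizontal axis) and without virgin replicates 2 and 4 (vertical axis), with the symbol giving the complex and a dashed line where both are equal. Most complex I genes move close to 0 on the vertical axis, though Ndufb2 of complex I is at -0.32. Uqcrfs1, Uqcrq, Uqcr11, Atp5k, Atp5l and Atp5md also lie at -0.26 or below there.

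The lists of other mitochondrial genes give the surroundings of the chain, and no gene in them passed the criteria (limma). The 77 proteins of the mitochondrial ribosome, which translates the subunits encoded in mitochondrial DNA, had 72 below 0, 9 of them at an unadjusted p under 0.05 (11.7% of the list, against 6.14% of all probe sets and 9.64% of bright ones), and a median of -0.14, which was -0.016 without virgin replicates 2 and 4. Their mean centred values were 0.18 and 0.20 on these arrays, -0.076 and -0.0073 on the other virgin pools and -0.20 to -0.016 in parous pools. The 23 import genes had 22 below 0, 6 of them at an unadjusted p under 0.05 (26.1%; median -0.21, and -0.072 without these arrays), led by the receptor Tomm70a at -0.44 (-0.14 without these arrays). Pyruvate dehydrogenase and the citric acid cycle had 17 of 18 below 0, 1 of them at an unadjusted p under 0.05 (5.56%; median -0.18, and -0.0062 without these arrays), with fumarase, Fh1, at -0.37 (-0.081 without these arrays). Of the 12 electron donors and carriers, 10 were below 0 (median -0.14, and -0.027 without these arrays), among them cytochrome c, Cycs, at -0.25 (-0.14). The 35 assembly factors with other symbols had a median of -0.056 (-0.0075 without these arrays), with Atpaf1, which assembles F1, at -0.36 (-0.16). Glycolysis, outside the mitochondrion, had a median of -0.012 (-0.027 without these arrays) and 8 of 14 below 0. Pfkl, a phosphofructokinase, had the smallest adjusted p among the genes named from these lists, with a log2 fold change of 0.40 (95% interval 0.23 to 0.56, adjusted p = 0.0804 from limma).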

How the data were processed

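Mammary cell suspensions of 8 pools of 5 mice, 4 parous and 4 virgin, were profiled on arrays, and samples were grouped by their titles. The authors deposited log2 values made with rma() of the affy package (version not given in the sources used here), which corrects background, quantile normalizes arrays and summarizes 34760 probe sets. Array medians were 6.29 to 6.43, and the number of arrays limits the precision. Of the probe sets, 21648 named 1 gene, 1313 several and 11799 none here; symbols were updated through gene identifier for 21553, through accession for 5, and kept for 90. Another 6 probe sets with a matching symbol beside other genes were left out. Of 17 members with several probe sets, 4 had probe sets of opposite sign, all in complexes III and V. In these the probe set used was below 0, and another was at 0.019 for Uqcr11, 0.050 for Atp5g1, 0.003 for Atp5h and 0.073 for Atp5l. For 8 members the probe set used has a number among those of another chromosome.

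Groups were compared in R 4.3.3 with limma 3.58.1 (lmFit, eBayes, 2-sided, no covariate), with p adjusted after Benjamini-Hochberg over every probe set, and the procedure was tested on simulated data. Exact permutation of 4 against 4 arrays can give no p below 0.029. Complexes and lists were described by counts, medians and mean centred values, with no test. Named were the 2 highest and 2 lowest members of each complex, isoform pairs, the 3 largest and 3 smallest SDs, and up to 3 genes past the criteria, otherwise the 2 with the largest change, in each other mitochondrial list. Members and lists were chosen with earlier results of these data known. Alternatives were a replicate block, fits that leave out arrays, renormalization, median centring, trend and robust eBayes, array weights, an unmoderated Student t statistic, filters on probe sets, other choices of probe set, symbol and complex. Probe sets by chromosome, and fits without virgin replicates 2 and 4, were added after the data were seen. Promoter windows are RefSeq's.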

Additional observations from a re-analysis of the deposited data

Results flagged for a closer look

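Of 130 groups of 4 values tested (named genes and means of complexes, in parous and virgin pools), 6 held a pool whose gap to its nearest neighbour took most of the group's range, and chance flags about 1 group in 20. Ndufc1 was low on parous replicate 4, at 8.79 against 8.98 to 9.00 in the other parous pools. The mean centred value of complex I was low on the same array, at -0.16. Ndufc2 on parous replicate 4 was 11.89, where the other 3 parous pools were all at 11.88. Ndufa7 was high on virgin replicate 2, at 9.19. Ndufaf5 was low on virgin replicate 1, at 5.31, and Cox4i2 high on parous replicate 3, at 7.26.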

How the results depend on the processing

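No respiratory chain gene passed the criteria in any fit, and the number passing at an unadjusted p under 0.05 without the fold criterion was 21. This number was 6 without virgin replicates 2 and 4, 9 to 29 when 1 array was left out (9 without virgin replicate 2, 10 without parous replicate 4, 13 without parous replicate 2), and 16 to 24 in the other alternatives. The medians of complexes I to V kept their sign in every alternative. Without virgin replicates 2 and 4, those of complexes I and II were -0.023 and -0.051. Only these 2 moved by more than the median SD of the members over the parous pools, 0.086. No median moved by more than the median SD over the virgin pools, 0.16 with all arrays. Without virgin replicates 2 and 4 the median virgin SD was 0.06. Over all probe sets, 138 were called, 49 with the replicate block, 11 with the unmoderated t statistic and 42 to 179 when 1 array was left out (fewest without parous replicate 3, at 42).

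Per the paper, both groups were part of each of 4 experiments, and no source used here ties replicate numbers to them, so the comparisons are unpaired. Arrays of the same replicate number did not deviate together in every case, with correlations of 0.115, 0.183, -0.0567 and 0.307, and not all numbers were best matched by themselves. With the replicate number as a block, 16 members had an unadjusted p under 0.05 and the medians of complexes I to V were the same as without it.

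Some genes changed sign, those near 0 and, without virgin replicates 2 and 4, Acad9, Eci2, Ndufaf2 and Ndufc2 which were at -0.34, -0.30, -0.24 and -0.16 with all arrays. With 1 array left out, log2 fold changes ranged from -0.00052 to 0.16 for Ndufb10, -0.0053 to 0.16 for Ndufaf5, -0.16 to 0.011 for Uqcrh, -0.040 to 0.12 for Cox4i2, -0.041 to 0.11 for Cox6a2, -0.20 to 0.063 for Cox7a1 and -0.064 to 0.20 for Ndufa4l2. Without virgin replicates 2 and 4 the log2 fold change was -0.0082 for Ndufb10, 0.026 for Ndufaf2, 0.042 for Sdhd, -0.12 for Cox4i2, -0.035 for Cox6a2, 0.12 for Cox7a1, -0.18 for Ndufa4l2, 0.0062 for Ndufc2, 0.035 for Acad9 and 0.038 for Eci2. With array weights Cox4i2 was at -0.0095. The cause was not tested. Fewer arrays enter the fits that leave arrays out, while the fit with array weights holds all 8. No detection values were used here, so background cannot be separated from signal for the 5 members below the median of every array.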

Other observations

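Some genes of neighbouring pathways lay apart from their lists, and values without virgin replicates 2 and 4 follow in brackets. Coq8a, an atypical kinase needed for ubiquinone synthesis, was at a log2 fold change of 0.70 (0.46; adjusted p = 0.215 from limma with all arrays). Coq3, a methyltransferase of the same pathway, was at -0.40 (-0.18), and 8 of 12 genes of the pathway were below 0, with a median of -0.11 (0.013). Ppargc1a, a coactivator that raises mitochondrial gene expression, was at 0.33 (0.31), whereas Twnk, the mitochondrial DNA helicase, was at -0.40 (-0.42). The 19 genes of biogenesis and mitochondrial DNA maintenance had a median of -0.093 and 13 below 0, which turned to 0.0059 and 9 without these arrays. In fatty acid oxidation, 12 of 15 genes were below 0 with a median of -0.091, which also turned, to 7 genes and 0.027. There Acadl was at -0.33 (-0.088) and Eci2 at -0.30 (0.038). Ldhb was at -0.41 (-0.18) in glycolysis, and in the citric acid cycle Suclg1 was at -0.33 (-0.16). In the remaining lists Etfdh was at -0.37 (-0.012), Acad9 at -0.34 (0.035), Timm8a1 at -0.37 (-0.14), Mrps22 at -0.38 (-0.089) and Mrpl54 at -0.37 (-0.21). None of these passed the criteria.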
